A study of Danio rerio with 7 samples.

Results

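The solute carrier (slc) genes were followed in tbx5 morphants across 3 stages of embryonic development. Of 43663 probes on the array, 81 probes of 71 slc genes could be named, and they belonged to 29 numbered slc families. A probe was taken as a member if its gene symbol, or the current symbol of its Entrez gene number, was slc followed by a digit in at least 1 of the deposited lists, 1 per stage, of probes that were lower in morphants. Each of the 81 probes was then found by its values on 1 probe of the table that holds all arrays. The morphants were whole AB strain zebrafish embryos injected with tbx5-MO, a morpholino that blocks translation of the heart and limb transcription factor Tbx5, and they were labelled with Cy5. They were compared on 2-colour Agilent arrays with WT embryos of the same strain and stage, labelled with Cy3, at 24 h post-fertilization (hpf, 2 arrays), 30 hpf (2 arrays) and 48 hpf (3 arrays). Both groups were RNA of pooled embryos, and the array controls were WT embryos, not embryos that received the mismatched morpholino of the study's other experiments. Values are log2 ratios of tbx5-MO over WT, so a negative value means less of the transcript in the morphants.

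Solute carriers are membrane proteins that move ions, metals, sugars, amino acids, nucleotides and vitamins across the plasma membrane and the membranes of organelles. They work as exchangers, as cotransporters driven by an ion gradient, or as facilitated carriers, and the family number groups carriers of related sequence. Members of slc25 sit in the inner mitochondrial membrane, slc6 carriers take up neurotransmitters and amino acids with sodium and chloride, and slc4a1a is the chloride and bicarbonate exchanger of red blood cells. In zebrafish, mutants of slc4a1a and of the iron importer slc11a2 are anaemic, and loss of slc24a5 lightens the melanophores.

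The lists that named the genes set what can be read from them. A probe entered a stage's list only if its log2 ratio was -0.584 or lower, 1.5-fold, on every array of that stage. A gene was therefore described at a stage only through probes named by the list of another stage. The values that named an slc gene enter none of its ratios, except for slc4a1a. Its 3 probes were in both the 24 and the 30 hpf lists, so each stage's values had also put them in a list. For every gene the naming values do enter the spread behind its p-values, since the test pools the spread of all 7 arrays. Other genes are given beside the slc genes without setting apart probes that were in more than 1 list. Some of the values of those other genes are therefore low by selection. The 24 hpf list named 41 slc genes, the 30 hpf list 25 and the 48 hpf list 8, and 3 genes (slc4a1a, slc25a36a and slc3a2b) were named through more than 1 list. This left 33 genes (37 probes) at 24 hpf, 48 genes (55 probes) at 30 hpf and 64 genes (73 probes) at 48 hpf. The 7 genes without a value at 48 hpf were slc2a3a, slc6a11a, slc16a9b, slc25a40, slc26a5, slc30a1b and slc43a2b. Just inside the limit at the stage that named them lay a probe of slc25a36a, at -0.60 and -0.83 on the 30 hpf arrays, and slc6a11a, at -0.77, -0.61 and -0.59 on the 48 hpf arrays. The lowest mean at a naming stage was that of slc25a4 at 30 hpf, with -2.65 and -5.49. Probes just outside the limit carry no name here.

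The families were of unequal size. With 10 genes slc25 was the largest, slc6 and slc35 had 6 each, and slc2, slc16, slc17 and slc30 had 4 each. A single gene stood for 14 of the 29 families, among them slc4, slc8, slc11 and slc24. One symbol, slc7a6os, names the gene on the opposite strand of a carrier and is no carrier itself.

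Several facts of the whole data set touch every value below. Over all probes, arrays of the same stage correlated weakly, with r between 0.07 and 0.14. Arrays of different stages gave r between -0.03 and 0.07. The array medians over all probes lay between -0.03 and 0.01, so the ratios had been centred before deposit, and the SD over probes lay between 0.77 and 1.49. Between 13.6% and 53.1% of the slc values on an array were shared by more than 10 of its probes, which was taken here, as an inference from the values, as a mark of dim spots. The array names in the lists begin with 1 of 2 numbers, which are read here as 2 days, an inference that no label states. Day 1 held 24 hpf replicate 1 and both 30 hpf arrays, and day 2 held 24 hpf replicate 2 and the 3 arrays of 48 hpf, so a difference between 48 and 30 hpf cannot be told apart from a difference between the days. Morphants always carried Cy5, so dye and tbx5-MO cannot be told apart. Whether replicate arrays came from separate pools of embryos is not stated in the sources used here, so each p-value measures spread between arrays that may be technical. Ratios hold no level, so whether a tissue's defining markers were present or absent could not be checked, and tbx5 itself was not named through any list.

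**Figure D1:**
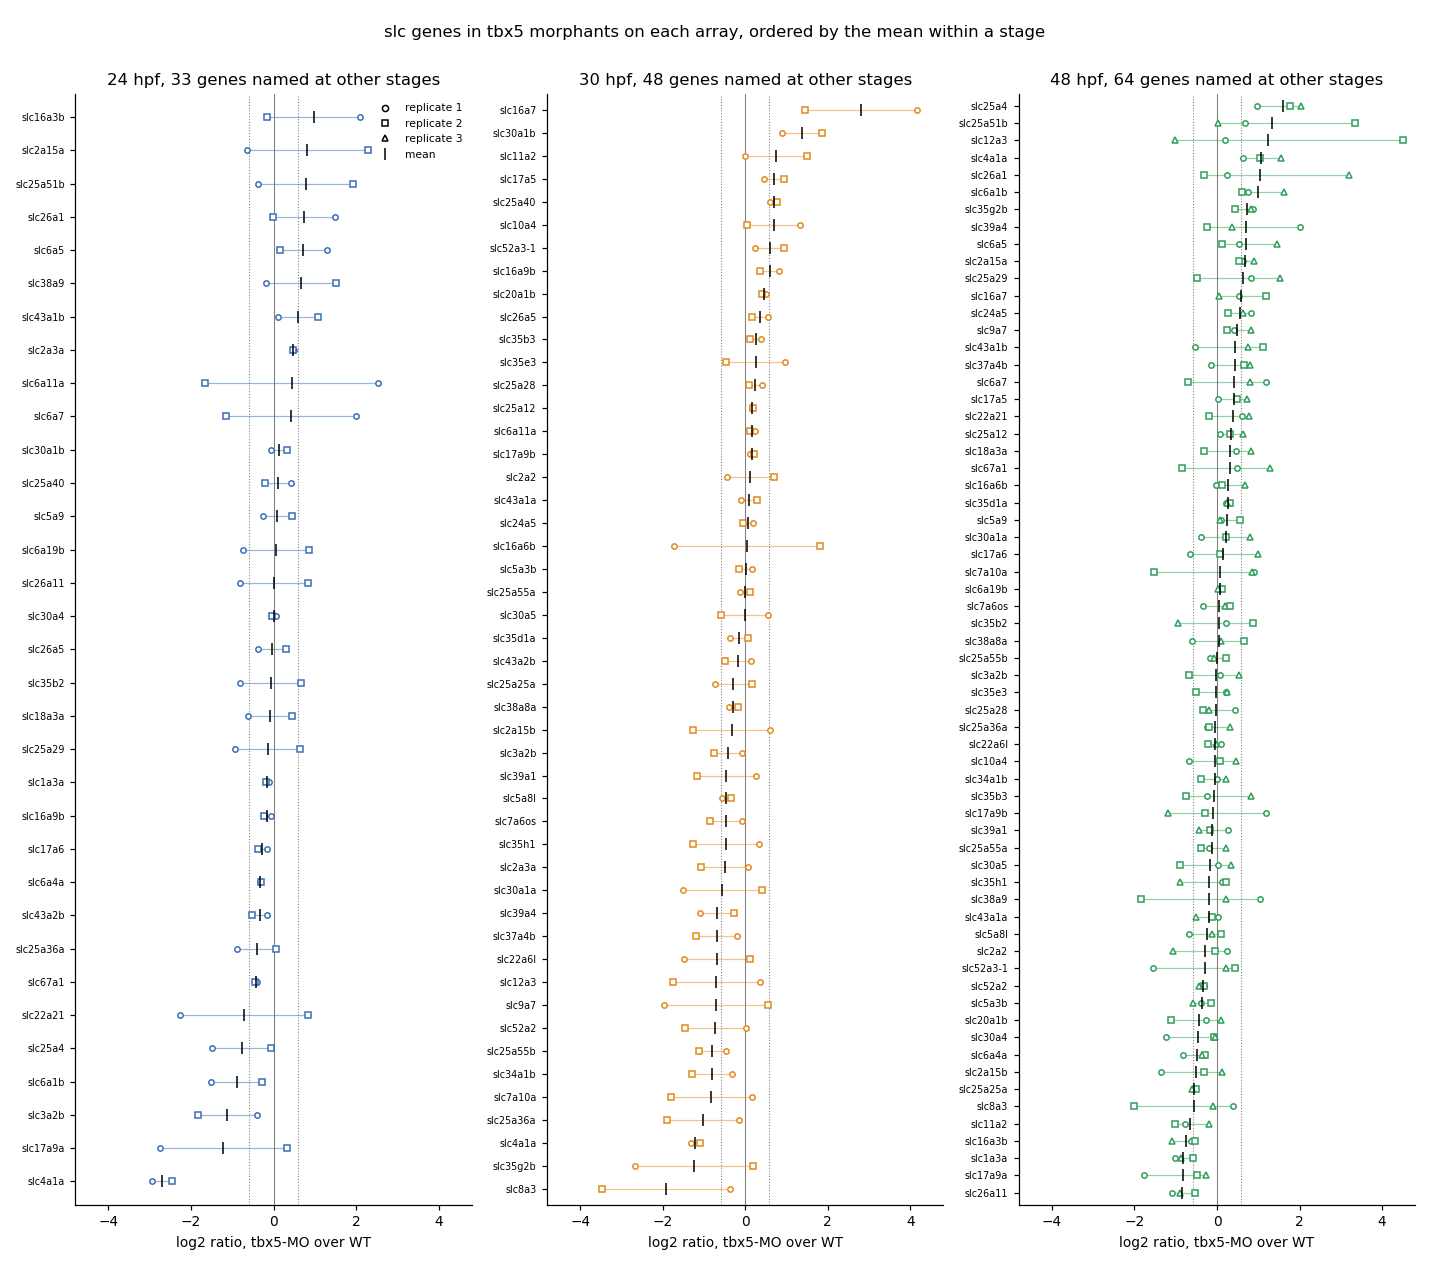
Log2 ratio of tbx5-MO over WT (x axis) for each slc gene (y axis, ordered by its mean within a stage) at 24, 30 and 48 hpf, with 1 open symbol per array, a vertical tick at the mean and dotted lines at 1.5-fold. The 33, 48 and 64 genes spread to both sides of 0 at every stage, and slc4a1a was the lowest gene at 24 hpf and among the highest at 48 hpf. The slc4a1a probes were in the 24 and 30 hpf lists, so their values at those stages were low by selection.

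As a class the solute carriers did not lie to one side of no change at any stage. The median log2 ratio over slc genes was -0.04 at 24 hpf, -0.16 at 30 hpf and 0.02 at 48 hpf. Over all genes named through the other stages' lists the median was -0.18, -0.13 and -0.08 at the same stages, and over all probes it was -0.01, -0.01 and 0.00. The arrays of a stage gave different slc medians. The 24 hpf arrays gave -0.34 and 0.06, those of 30 hpf gave 0.09 and 0.05, and those of 48 hpf gave 0.08, -0.14 and 0.21. At 30 hpf both array medians were above 0 while the median of the gene means was below it, and at 24 hpf the sign was that of replicate 1. At 24 hpf 17 of 33 slc genes had a mean below 0, at 30 hpf 27 of 48 and at 48 hpf 32 of 64, where all probes gave 50.4% at each stage and the genes named through the other lists 61.3%, 58.1% and 56.5%.

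At 24 hpf 6 of 33 slc genes (18.2%) were at least 1.5-fold lower in the mean and 7 (21.2%) at least 1.5-fold higher, against 20.8% and 20.9% of all probes and 28.4% and 14.4% of all genes named through the other lists. At 30 hpf 13 of 48 (27.1%) were lower and 8 (16.7%) higher, against 18.8% and 17% of all probes and 23.2% and 10.5% of the named genes. At 48 hpf 5 of 64 (7.81%) were lower and 12 (18.8%) higher, against 11.3% and 12.7% of all probes and 14.2% and 11.4% of the named genes. With 1 array left out the lower genes numbered 4 to 12 at 24 hpf, 8 to 15 at 30 hpf and 7 to 8 at 48 hpf. The higher genes at 48 hpf then numbered 8 to 17. The share of all probes with the same array left out is not given here, so these counts are not set against it. The median SD between the arrays of a stage was 0.81 at 24 hpf, 0.60 at 30 hpf and 0.53 at 48 hpf, which is more than the 1.5-fold limit at the first 2 stages.

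The genes whose arrays all lay on 1 side of 0 were counted as well. At 24 hpf 10 of 33 were below 0 on both arrays and 3 above, against 27.6% and 26.3% of all probes and 37.1% and 19.3% of the named genes. At 30 hpf 11 of 48 were below and 14 above, against 29.1% and 26.4% of all probes and 37.5% and 25.7% of the named genes. At 48 hpf 10 of 64 were below 0 on all 3 arrays and 15 above, against 18.1% and 16.8% of all probes and 25.3% and 17.6% of the named genes. Probes of 1 gene did not always point the same way. Of the genes with more than 1 usable probe, 0 of 3 at 24 hpf, 4 of 6 at 30 hpf and 3 of 8 at 48 hpf had probes on both sides of 0.

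No slc probe passed limma's test over all 43663 probes with Benjamini-Hochberg adjustment at any stage, and few probes of any kind did. The test called 0.0321% of all probes at 24 hpf, 0.00687% at 30 hpf and 0% at 48 hpf. At an unadjusted p under 0.05 there were 4 of 37 slc probes at 24 hpf, all lower and 3 of them of slc4a1a, against 6.45% of all probes called lower. There were 2 lower, both of slc4a1a, and 2 higher of 55 at 30 hpf, against 4.39% and 4.04% of all probes. At 48 hpf there were 1 lower and 5 higher of 73, with 3 of the higher ones of slc4a1a, against 3.19% and 2.65%. These probes belonged to slc4a1a and slc3a2b at 24 hpf, to slc4a1a, slc16a7 and slc30a1b at 30 hpf, and to slc4a1a, slc25a4, slc6a1b and slc1a3a at 48 hpf. The slc4a1a probes were in the 24 and 30 hpf lists, so at those stages they were low by selection. With 2 or 3 arrays a stage, missing the threshold does not show that a gene was unchanged.

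The red cell anion exchanger slc4a1a had the largest ratios of the class below 0 at 24 hpf and lay above 0 at 48 hpf. It was measured by 3 probes that carry the same RefSeq transcript in the lists, all on chromosome 3 in the lists' annotation, for which the sources used here name no genome build. The mean of its probes was -2.95 and -2.47 on the 24 hpf arrays, -1.31 and -1.10 on the 30 hpf arrays, and 0.64, 1.03 and 1.56 on the 48 hpf arrays. Every array of 24 and 30 hpf was below 0 and every array of 48 hpf above it, and the 3 stages did not overlap. The probes of slc4a1a were in both the 24 and the 30 hpf lists, so lying below 0 on those arrays was a condition of entry. Only the 48 hpf values were free of this. The stage means were -2.71 ± 0.34 (SD, n = 2), or 6.55-fold lower, at 24 hpf, -1.21 ± 0.15 (SD, n = 2) at 30 hpf and 1.08 ± 0.46 (SD, n = 3), or 2.11-fold higher, at 48 hpf.

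The 3 probes of slc4a1a gave means between -3.15 and -2.49 at 24 hpf, between -1.57 and -0.83 at 30 hpf and between 0.89 and 1.28 at 48 hpf, so all lay on the same side within a stage. At 24 and 30 hpf this was required by the lists that held the 3 probes. Their adjusted p-values from limma were 0.230 to 0.239 at 24 hpf, 0.467 to 0.625 at 30 hpf and 0.773 to 0.834 at 48 hpf, and none passed. With the day as a block all 3 probes passed at 24 hpf (lowest adjusted p = 0.0117 from limma), in a fit where 2054 of 43663 probes did. Only 24 hpf has an array in each day, so the block takes up the whole spread between its arrays, and the spread behind that p comes from 30 and 48 hpf alone. Without 24 hpf replicate 2 the mean of the 3 probes at 24 hpf was -2.95, on 1 array. At 24 hpf 1 value of a probe was shared by 14 probes of its array, while at 30 and 48 hpf each value was found once.

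The difference between stages was tested on its own. The lists of 24 and 30 hpf both held the slc4a1a probes, so the earlier value of each difference was low by selection. From the probes named through the 30 hpf list, slc4a1a was higher at 48 than at 24 hpf by 3.79 on the log2 scale (adjusted p = 0.284 to 0.335 from limma), and by 3.55 within day 2, over the 3 arrays of 48 hpf and the 1 of 24 hpf. From those named through the 24 hpf list it was higher at 48 than at 30 hpf by 2.28 (adjusted p = 0.538 to 0.565 from limma). Neither difference passed. The first was called for 2 probes when only values shared by at most 10 probes were kept (lowest adjusted p = 0.0372 from limma). In that fit 40 of 8623 probes were called. Without 24 hpf replicate 2 the earlier value of slc4a1a was -2.95, on 1 array.

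Other red blood cell genes were mostly below 0 at 24 and 30 hpf and above 0 at 48 hpf, as slc4a1a was. The genes hbae1.1 and hbae3 had a value at all 3 stages, so more than 1 list named them. A probe in both the 24 and the 30 hpf lists is below 0 at both stages by selection, and such probes were not set apart here. The genes with a value differed between the stages, so their medians are over different genes. Of those with a value at both 24 and 30 hpf, hbae1.1 went from a mean of -1.06 to -2.24 and hbae3 from -1.44 to -2.03. In contrast slc4a1a was higher at 30 than at 24 hpf. Its values at both stages had put its probes in a list and this difference was not tested, so nothing is read from it. Of 14 markers listed, 5 had a value at 24 hpf, 3 at 30 hpf and 6 at 48 hpf from lists of other stages. Their median log2 ratio was -0.63 at 24 hpf (range -1.44 to 0.05), -2.03 at 30 hpf (range -2.24 to -0.63) and 0.74 at 48 hpf (range -0.52 to 1.74), with 4 of 5, 3 of 3 and 1 of 6 below 0. The embryonic alpha globin hbae3 was at -1.53 and -1.34 on the 24 hpf arrays, -1.86 and -2.20 on the 30 hpf arrays, and 1.55, 1.62 and 2.07 on the 48 hpf arrays. The embryonic beta globin hbbe3 went the other way at 48 hpf, at -0.80, -0.34 and -0.44. None of these probes passed limma's test. In RNA of whole embryos, fewer red blood cells and less RNA per cell cannot be told apart, and the markers' part in the values of slc4a1a was not tested.

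**Figure D2:**
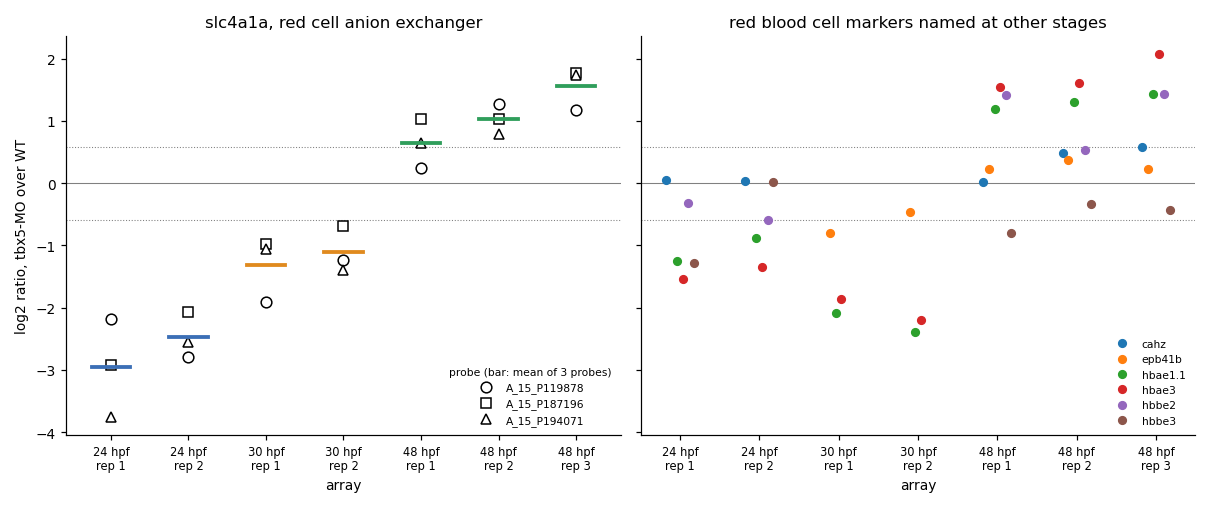
Log2 ratio of tbx5-MO over WT (y axis) on each of the 7 arrays (x axis) for the 3 probes of slc4a1a (left, with a bar at their mean) and for red blood cell markers at the stages where another list named them (right), with dotted lines at 1.5-fold. The slc4a1a means lay between -2.95 and -1.10 on the 24 and 30 hpf arrays and between 0.64 and 1.56 on the 48 hpf arrays. The slc4a1a probes were in the 24 and 30 hpf lists, so their values on those arrays were low by selection.

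At 30 hpf 8 carriers of inorganic ions had a median of -0.70, with 5 at least 1.5-fold lower in the mean and 0 at least 1.5-fold higher, against 18.8% and 17% of all probes. The 5 include slc4a1a, whose 30 hpf values were low by selection. Without slc4a1a there were 7, of which 4 were below 0 and 3 above, and the 4, slc8a3, slc34a1b, slc9a7 and slc12a3, were all past 1.5-fold in the mean with arrays far apart. The sodium and calcium exchanger slc8a3 was at -0.37 and -3.46, and the phosphate cotransporter slc34a1b at -0.33 and -1.28. The sodium and proton exchanger slc9a7, at -1.96 and 0.54, and the sodium and chloride cotransporter slc12a3, at 0.35 and -1.75, had arrays on both sides of 0. The phosphate carrier slc20a1b was higher on both, at 0.50 and 0.40.

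At 48 hpf the median of the 9 inorganic ion carriers was 0.50, with 3 at least 1.5-fold higher and 1 lower, against 12.7% and 11.3% of all probes. Without slc4a1a the median was 0.22, with 4 genes on each side of 0. Besides slc4a1a the higher ones rested on single arrays, since slc12a3 was at 0.20, 4.50 and -1.02 and the sulphate carrier slc26a1 at 0.25, -0.33 and 3.21. The anion carrier slc26a11 was the lowest slc gene of that stage, at -1.09, -0.54 and -0.91 (mean -0.85 ± 0.28, SD, n = 3; adjusted p = 0.834 from limma). At 24 hpf 4 genes of the role had a value. Apart from slc4a1a these were slc26a1, at 1.49 and -0.02, slc26a5, at -0.37 and 0.29, and slc26a11, at -0.81 and 0.84, each with arrays on both sides of 0.

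The melanosomal exchanger slc24a5 was close to 0 at 30 hpf, at 0.19 and -0.07, and above 0 on each 48 hpf array, at 0.81, 0.27 and 0.62 (mean 0.57 ± 0.27, SD, n = 3; adjusted p = 0.834 from limma). The 48 and 30 hpf arrays did not overlap. Pigment cell markers were also above 0 at 48 hpf, 5 of 5 with a median of 0.61 and a range of 0.33 to 0.81, and the 1 with a value at 30 hpf, mitfa, was at -0.51. Of 11 such markers listed, 4 had a value at 24 hpf, all below 0. Their part in the value of slc24a5 was not tested.

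Trace metal carriers went to both sides. The zinc exporter slc30a1b was higher at 30 hpf, at 0.89 and 1.85 on the 2 arrays (mean 1.37 ± 0.68, SD, n = 2; unadjusted p = 0.0407 and adjusted p = 0.582 from limma), against -0.07 and 0.32 at 24 hpf. Its paralogue slc30a1a was at -1.52 and 0.40 at 30 hpf. The zinc importer slc39a4 was below 0 on both 30 hpf arrays, at -1.09 and -0.28, and at 2.00, -0.25 and 0.37 at 48 hpf. The iron importer slc11a2 was lower on each 48 hpf array, at -0.78, -1.02 and -0.20 (mean -0.66 ± 0.42, SD, n = 3; adjusted p = 0.866 from limma), against -0.01 and 1.49 at 30 hpf. At 48 hpf slc11a2 and slc4a1a, which both serve red blood cells, therefore lay on opposite sides of 0. The zinc exporter slc30a4 was lower on each 48 hpf array, at -1.23, -0.08 and -0.05.

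**Figure D3:**
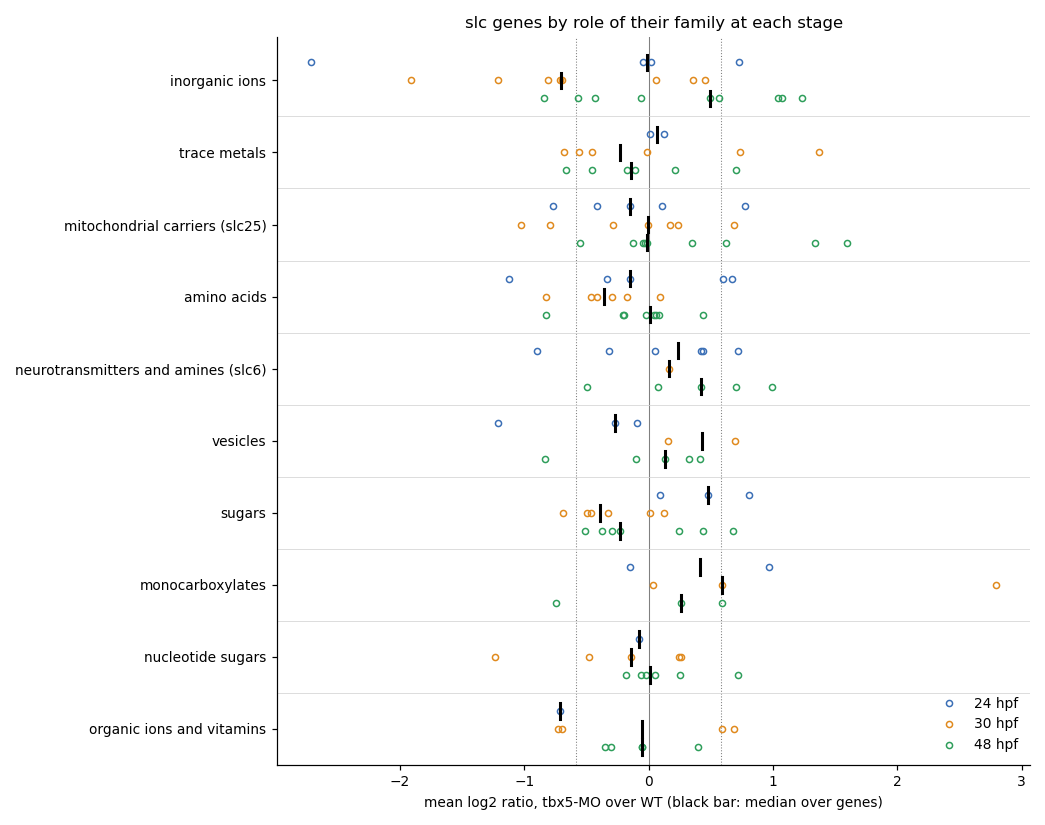
Mean log2 ratio of tbx5-MO over WT (x axis) for slc genes grouped by the role of their family (y axis), with 1 circle per gene, a black bar at the median of each stage and dotted lines at 1.5-fold. The median of the inorganic ion carriers was -0.70 at 30 hpf and 0.50 at 48 hpf, while the slc25 medians lay between -0.15 and -0.01.

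The mitochondrial carriers of slc25 did not move as a family. Their median was -0.15 over 5 genes at 24 hpf, -0.01 over 7 genes at 30 hpf and -0.01 over 9 genes at 48 hpf, and at 24 hpf the single arrays gave -0.89 and 0.06. At 24 hpf 1 gene was at least 1.5-fold lower and 1 higher, at 30 hpf 2 lower and 1 higher, and at 48 hpf 0 lower and 3 higher. Of all probes, 20.8%, 18.8% and 11.3% were lower and 20.9%, 17% and 12.7% higher by this limit at the 3 stages. None of the 13 slc25 probes passed limma's test at a stage where it was described.

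The ADP/ATP carrier slc25a4, which exchanges cytosolic ADP for ATP made in the mitochondria and is the form of heart and skeletal muscle in mammals, was the highest slc gene at 48 hpf. It was at 0.98, 1.76 and 2.05 on the 48 hpf arrays (mean 1.59 ± 0.55, SD, n = 3; unadjusted p = 0.0274 and adjusted p = 0.834 from limma), or 3.02-fold higher. On the 24 hpf arrays it was at -1.48 and -0.06, so all arrays of 48 hpf were above 0 and both of 24 hpf below. The difference of 48 minus 24 hpf was 2.36 (unadjusted p = 0.0351 and adjusted p = 0.599 from limma) and 1.66 within day 2. Its gene was named at 30 hpf, where the values that named it were the lowest of that list's slc probes.

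Skeletal muscle markers went the same way as slc25a4. Several, such as ckmb, mylpfa and pvalb1, had a value at all 3 stages, so more than 1 list named them. Where a probe was in both the 24 and the 30 hpf lists, its values there were below 0 by selection. Of 15 listed, 12 had a value at 24 hpf with a median of -1.34 (range -3.39 to -0.02) and 12 below 0. At 30 hpf 10 had a median of -1.74 with 9 below 0, and at 48 hpf 13 had a median of 1.21 (range -2.93 to 2.31) with 12 above 0. Their part in the values of slc25a4 was not tested.

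The other slc25 genes varied around 0 or between arrays. The NAD carrier slc25a51b (a role known from human) was at 0.67, 3.33 and 0.01 at 48 hpf and at -0.37 and 1.93 at 24 hpf, so its means of 1.34 and 0.78 rested on 1 array each. The ATP-Mg and phosphate carrier slc25a25a had the closest arrays of the family at 48 hpf, at -0.57, -0.50 and -0.60 (mean -0.56 ± 0.05, SD, n = 3; adjusted p = 0.834 from limma), just short of 1.5-fold. The pyrimidine nucleotide carrier slc25a36a was at -0.16 and -1.89 on the 30 hpf arrays, and the family member slc25a55b at -0.47 and -1.12. The highest of the family at 30 hpf was slc25a40, at 0.61 and 0.77 (mean 0.69 ± 0.12, SD, n = 2), with a value that 67 probes of an array shared. The aspartate and glutamate carrier slc25a12 was above 0 on every array described, with 0.16 and 0.18 at 30 hpf and with 0.08, 0.31 and 0.64 at 48 hpf. The iron carrier slc25a28 was at 0.39 and 0.08 at 30 hpf. The means of both were under 1.5-fold.

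**Figure D4:**
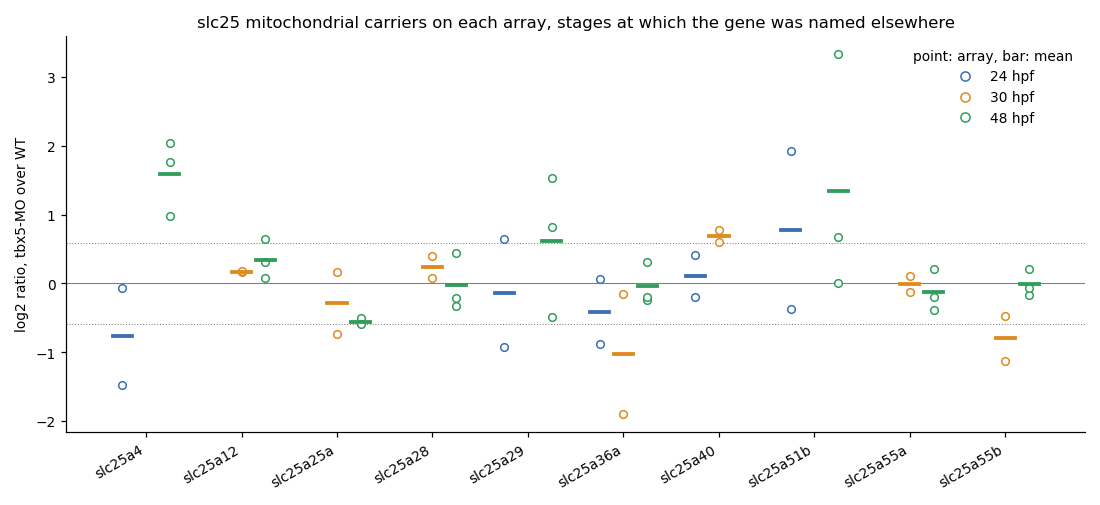
Log2 ratio of tbx5-MO over WT (y axis) for the 10 slc25 genes (x axis) on each array of the stages at which another list named them, with circles for arrays, bars for the mean of a stage and dotted lines at 1.5-fold. All 3 arrays of slc25a4 at 48 hpf lay between 0.98 and 2.05, and the 3 of slc25a25a between -0.60 and -0.50.

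Genes of oxidative phosphorylation, which supply the gradient that many slc25 carriers use, had medians of -0.27 at 24 hpf over 30 genes (20 below 0), -0.49 at 30 hpf over 17 genes (12 below 0) and -0.10 at 48 hpf over 37 genes (25 below 0). At 30 hpf 7 of the 17 were at least 1.5-fold lower and 1 higher. Of all probes 18.8% were lower and 17% higher by this limit, and of the genes named through the other lists 23.2% and 10.5%. Among the 7, ndufa10, ndufa8, ndufb11 and uqcrfs1 had a value at all 3 stages, so more than 1 list named them. Where the 30 hpf list held the probe, its 30 hpf values were low by selection, so nothing is read from this count. None of the oxidative phosphorylation probes passed limma's test.

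Of the amino acid carriers, 1 had an unadjusted p under 0.05 at 48 hpf. The glutamate transporter slc1a3a, which clears glutamate at synapses and in mammals is found in astrocytes, was at -1.02, -0.57 and -0.88 on the 48 hpf arrays (mean -0.82 ± 0.23, SD, n = 3; unadjusted p = 0.0189 and adjusted p = 0.834 from limma), or 1.77-fold lower, each value found once on its array. At 24 hpf it was at -0.11 and -0.19. The heavy chain of the heteromeric amino acid transporters, slc3a2b, was at -0.41 and -1.82 on the 24 hpf arrays (mean -1.12 ± 1.00, SD, n = 2; unadjusted p = 0.041 and adjusted p = 0.389 from limma). The -1.82 was a value that 24 probes of its array shared. The probes of slc3a2b at 30 hpf disagreed, with means of -0.98 and 0.15. The neutral amino acid carriers slc43a1b, at 0.11 and 1.08, and slc43a2b, at -0.16 and -0.51, lay on opposite sides of 0 at 24 hpf.

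The slc6 family, which holds transporters of neurotransmitters and also of amino acids (slc6a7 and slc6a19b), had 4 of 5 genes above 0 at 48 hpf and a median of 0.42. The GABA transporter slc6a1b was at 0.75, 0.61 and 1.61 on the 48 hpf arrays (mean 0.99 ± 0.54, SD, n = 3; unadjusted p = 0.0327 and adjusted p = 0.834 from limma). On the 24 hpf arrays it was at -1.52 and -0.27, the latter a value that 29 probes shared. All 48 hpf arrays thus lay above all 24 hpf arrays, by 1.89 in the means (unadjusted p = 0.015 and adjusted p = 0.599 from limma) and by 1.26 within day 2. The glycine transporter slc6a5, of inhibitory neurons, was above 0 on every array described, at 1.29 and 0.15 at 24 hpf and at 0.53, 0.12 and 1.45 at 48 hpf. Its 24 hpf values were shared by 13 and 36 probes. The serotonin transporter slc6a4a was below 0 on every array described, at -0.34 and -0.30 at 24 hpf and -0.82, -0.29 and -0.37 at 48 hpf. Neither passed limma's test at either stage. A further GABA transporter, slc6a11a, was at 2.54 and -1.66 on the 24 hpf arrays, on both sides of 0.

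Carriers of synaptic and other vesicles had 3 of 5 genes above 0 at 48 hpf, with a median of 0.13. The vesicular glutamate transporter slc17a6 was at -0.16 and -0.39 at 24 hpf, on which 100 probes of an array shared a value, and at -0.64, 0.06 and 0.98 at 48 hpf. The nucleotide carrier slc17a9a was below 0 on each 48 hpf array, at -1.77, -0.47 and -0.26, and at -2.75 and 0.32 at 24 hpf. The lysosomal sialic acid carrier slc17a5 was above 0 on every array described, at 0.44 and 0.94 at 30 hpf and 0.03, 0.48 and 0.73 at 48 hpf. Of 14 neuron markers listed, 4 had a value at 24 hpf (median -0.98, all below 0), 4 at 30 hpf (median -1.87, all below 0) and 5 at 48 hpf (median 0.83, all above 0). The markers elavl4, nrxn1a and stmn1b had a value at all 3 stages. More than 1 list named these, so their values at 24 and 30 hpf can be low by selection. The part of the neuron markers in the values of these carriers and of slc6 was not tested.

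The largest ratio above 0 at 30 hpf was that of slc16a7, a carrier of lactate and pyruvate. With values shared by 13 and 12 probes of the 30 hpf arrays, slc16a7 carried the mark taken here for dim spots on both. It was at 4.15 and 1.44 on the 30 hpf arrays (mean 2.79 ± 1.92, SD, n = 2; unadjusted p = 0.00313 and adjusted p = 0.443 from limma), or 6.93-fold higher, and at 0.54, 1.19 and 0.04 on the 48 hpf arrays. Both 30 hpf arrays were above all 48 hpf arrays. Without 30 hpf replicate 2 its value at 30 hpf was 4.15, on 1 array. Its paralogue slc16a3b, which in mammals exports lactate, was lower on each 48 hpf array, at -0.62, -0.53 and -1.09 (mean -0.75 ± 0.30, SD, n = 3; adjusted p = 0.841 from limma), and at 2.10 and -0.15 at 24 hpf. The family member slc16a9b was at 0.83 and 0.35 at 30 hpf and at -0.06 and -0.24 at 24 hpf, a difference of 0.74 (adjusted p = 0.696 from limma) and of 0.65 within day 1.

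The means of the sugar carriers lay on both sides of 0 at 30 and 48 hpf. The glucose-6-phosphate transporter slc37a4b of the endoplasmic reticulum was at -0.19 and -1.19 at 30 hpf, with a value that 129 probes shared, and at -0.14, 0.64 and 0.81 at 48 hpf. The hexose transporter slc2a15a was at 0.62, 0.53 and 0.89 at 48 hpf (mean 0.68 ± 0.18, SD, n = 3; adjusted p = 0.880 to 0.931 from limma). At 24 hpf its arrays lay on both sides of 0, at -0.66 and 2.28, and its 2 probes gave means of 0.00 and 1.62. The glucose transporter slc2a3a was at 0.50 and 0.46 at 24 hpf and at 0.07 and -1.06 at 30 hpf, and slc2a2, the glucose transporter of liver in mammals, had arrays on both sides of 0 at 30 and 48 hpf.

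Of the nucleotide sugar family slc35, 6 genes had a median of 0.02 at 48 hpf. Above 1.5-fold was slc35g2b, at 0.88, 0.44 and 0.83 (mean 0.72 ± 0.24, SD, n = 3; adjusted p = 0.885 from limma), with -2.66 and 0.18 at 30 hpf. Among carriers of organic ions and vitamins, the orphan carrier slc10a4 was at 1.34 and 0.03 at 30 hpf, and the riboflavin carriers slc52a3-1, at 0.24 and 0.95, and slc52a2, at 0.01 and -1.46, lay to different sides. The gene slc67a1, slc22a18 in the lists, was at -0.40 and -0.45 at 24 hpf.

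Between 48 and 30 hpf the slc genes went to both sides, in shares near those of all probes. The 41 genes were named through the 24 hpf list, which used neither stage, but the slc4a1a probes were in the 30 hpf list as well. Over the 41 the difference of 48 minus 30 hpf had a median of 0.23, with 23 genes higher at 48 hpf and 18 lower. Of all probes 50.3% were higher, and of the 1936 genes of that list 51.4%, with a median of 0.02. The slc median was -0.01 without 30 hpf replicate 2. All arrays of the pair of stages lay on opposite sides of 0 in 1 of 41, against 10.5% of all probes and 14.9% of the list's genes. That 1 was slc4a1a, with its 30 hpf values below 0 by selection. The 48 and 30 hpf arrays did not overlap in 8 genes that were higher at 48 hpf (19.5%) and 4 that were lower (9.76%), against 14.5% and 14.8% of all probes and 19.6% and 16.5% of the genes of that list. None of 47 probes passed limma's test of the difference, which called 0% of all probes. In the same test 1 lower and 3 higher had an unadjusted p under 0.05, against 3.57% and 3.9% of all probes. The 3 higher ones were all probes of slc4a1a, whose 30 hpf values were low by selection.

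Among the genes whose arrays did not overlap, the largest differences upward after slc4a1a were those of slc35g2b, at 1.95 (adjusted p = 0.682 from limma), the zinc importer slc39a4, at 1.39 (0.709), and the pyrimidine carrier slc25a36a, at 1.19 (0.712). For slc25a36a this compares the probe of the 24 hpf list alone, with -0.05, 0.05 and 0.49 at 48 hpf against -0.16 and -1.89 at 30 hpf. Next among these came slc37a4b, at 1.13, and slc25a55b, at 0.79. The sodium and chloride cotransporter slc12a3 had a difference of 1.93, with arrays that overlapped. The 4 genes that were lower were slc16a7, at -2.20 (adjusted p = 0.648 from limma), slc11a2, at -1.40 (0.713), slc20a1b, at -0.88 (0.760), and the myo-inositol carrier slc5a3b, at -0.38 (0.863).

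**Figure D5:**
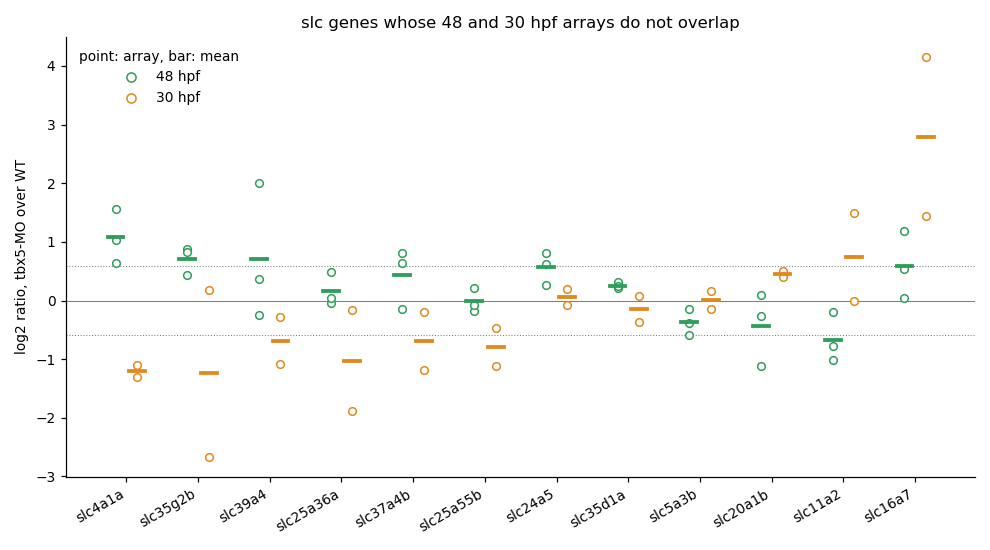
Log2 ratio of tbx5-MO over WT (y axis) at 48 and 30 hpf for the 12 slc genes (x axis) named through the 24 hpf list whose arrays of these stages did not overlap, ordered by the difference, with circles for arrays, bars for means and dotted lines at 1.5-fold. Only slc4a1a had all arrays of 48 hpf above 0 and all arrays of 30 hpf below 0. Its probes were also in the 30 hpf list, which required values below 0 there.

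Between 48 and 24 hpf the 25 genes of the 30 hpf list had a median difference of 0.15, which was also the median of all 1694 genes of that list. Of the 25, 16 were higher at 48 hpf, against 50.2% of all probes and 57% of the list's genes. The median was -0.31 within day 2, on 1 array of 24 hpf. The arrays did not overlap in 3 genes that were higher at 48 hpf (slc4a1a, slc25a4 and slc6a1b) and 3 that were lower (slc16a3b, slc1a3a and slc30a4), 12% each, against 14.2% and 13.3% of all probes and 22.6% and 12% of the list's genes. Those 3 that were higher had the arrays of the stages on opposite sides of 0, against 8.16% of all probes and 12.5% of the list's genes. For slc4a1a the 24 hpf values were below 0 by selection, since its probes were in the 24 hpf list as well. Limma's test of this difference called 0.00229% of all probes and 0 of 29 slc probes. Of the 29, 5 higher and 1 lower had an unadjusted p under 0.05 in that test, against 4.41% and 3.86% of all probes. Among the 5 higher ones, 3 were probes of slc4a1a. Between 30 and 24 hpf only 8 genes could be compared, with a median of 0.28, and 6 were higher at 30 hpf, against 49.6% of all probes and 58.7% of the genes of the 48 hpf list. The arrays did not overlap in 3 that were higher and 1 that was lower, against 18.9% and 17.9% of all probes and 29.8% and 15.9% of that list's genes. In 1 of 8, slc16a9b, they lay on opposite sides of 0, against 13.4% and 16.7%. Of the 8 probes 0 had an unadjusted p under 0.05, against 8.24% of all probes. Limma's test called 0.00229% of all probes there. In that comparison slc30a1b was higher at 30 hpf by 1.24, and by 1.44 within day 1, and slc2a3a lower by 0.98.

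Other transport genes were taken by symbol in the same way. Of these, atp1b1b, atp6v0cb, atp2a1, atp2b1b, aqp3a and aqp7 had a value at all 3 stages, so more than 1 list named them. They include both calcium pumps and both aquaporins with a value at 30 hpf. Where a probe was in more than 1 list, its values at those stages were below 0 by selection, and such probes were not set apart. Of all probes 50.4% were below 0 at each stage. Of all genes named through the other lists 61.3% were below 0 at 24 hpf, 58.1% at 30 hpf and 56.5% at 48 hpf. Subunits of the sodium, potassium and proton pumps make the gradients that ion-coupled slc carriers use. Their median was -0.72 at 30 hpf, with 7 of 7 genes below 0. Of the 7, 5 were at least 1.5-fold lower, against 18.8% of all probes and 23.2% of the named genes. The median of the pumps was -0.11 over 8 genes at 24 hpf and -0.17 over 9 genes at 48 hpf. The calcium pumps were below 0 in 3 of 3 genes at 24 hpf (median -0.95) and in 2 of 2 at 30 hpf (median -1.22), and above 0 in 3 of 3 at 48 hpf (median 0.71). One of them, the muscle pump atp2a1, was below 0 on the 24 hpf arrays, at -0.66 and -1.25, and on the 30 hpf arrays, at -1.51 and -1.39, and above 0 on the 48 hpf arrays, at 0.34, 0.58 and 1.21. The aquaporins, which carry water and glycerol, had medians of -1.42 over 3 genes at 24 hpf, -1.62 over 2 genes at 30 hpf and -0.18 over 3 genes at 48 hpf. The ABC transporters had medians of -0.15, -0.30 and -0.14 over 5, 2 and 5 genes. None of the probes of these lists passed limma's test.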

How the data were processed

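Agilent arrays with 2 colours were scanned with a GenePix scanner, and the authors deposited the log2 ratios as GeneSpring GX had normalized them, 1 for each probe on each of 7 arrays. By the dyes, these are tbx5-MO (Cy5) over WT (Cy3). The steps in GeneSpring GX, whether dim spots were filtered and which genome build was used are not stated in the sources used here. The authors also deposited, per stage, a list of probes at least 1.5-fold lower on every array, with gene names. Each listed probe was placed where its values on all arrays of its stage matched 1 probe of the table (6662 of 6740 listed probes; 81 of 81 slc probes). Symbols were updated by Entrez number, which changed 42 and alone made 26 of the 81 slc probes members. For 3 probes (slc17a6 and slc25a28) no current symbol was found, and the list's was kept. Deposited columns of the lists other than names and ratios were not used.

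In R 4.3.3, limma 3.58.1 fitted 1 mean per stage to all 43663 probes over 7 arrays and tested each mean against 0 and each difference between stages, with Benjamini-Hochberg adjustment over all probes and a threshold of 0.05. The fit was tested on simulated data. A gene is the mean of its usable probes. A fold limit of 1.5 was counted without a test, and lists are described by counts and medians beside all probes and beside all genes named in the same way. The number of arrays limits the precision, and the signal behind a ratio is unknown. The genes named in the text are, at each stage, up to 8 in each direction with the largest mean among those on 1 side of 0 on every array, up to 6 in each direction for 48 minus 30 hpf, the highest and lowest slc25 gene, and carriers of red blood cells, pigment cells, neurons and glucose that the lists named. Others of these carriers, such as the heart calcium exchanger slc8a1a, mitoferrin slc25a37, the iron exporter slc40a1 and the pigment gene slc45a2, were not named through a list and are not analysed here. A few others were named after their values were seen (slc9a7, slc12a3, slc26a1, slc30a1a, slc2a2, slc52a2, slc25a12, slc25a28, slc6a11a, slc26a5). The members, lists and rules were chosen with earlier results of these data known. Alternatives were centring, scaling, fits per stage, robust moderation, the replicate number or the day (read from the array names) as a block, other rules for probes and symbols, a limit on shared values, and each array left out. Figures were drawn with matplotlib 3.10.9.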

Additional observations from a re-analysis of the deposited data

Results flagged for a closer look

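The arrays of a pair of stages lay on opposite sides of 0 in 1 of 8 slc genes between 24 and 30 hpf, in 3 of 25 between 24 and 48 hpf and in 1 of 41 between 30 and 48 hpf, against 13.4%, 8.16% and 10.5% of all probes and 16.7%, 12.5% and 14.9% of the genes of the same lists. The log2 difference of 48 minus 24 hpf was 3.79 for the red cell anion exchanger slc4a1a, 2.36 for the ADP/ATP carrier slc25a4 and 1.89 for the GABA transporter slc6a1b. That of 48 minus 30 hpf was 2.28 for slc4a1a, and that of 30 minus 24 hpf was 0.74 for slc16a9b. These genes were picked out by the sides of their arrays and not by a test, and limma's tests of the differences gave adjusted p-values of 0.284 to 0.335, 0.599, 0.599, 0.538 to 0.565 and 0.696 in this order, so none passed. The slc4a1a probes were in the 24 and 30 hpf lists, so the side of their earlier arrays was set by selection. No stage had the 4 arrays needed to look for an array that stands apart from the others of its group.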

How the results depend on the processing

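The number of slc probes that passed limma's test was 0 at each stage and difference in the main settings, and 2 alternatives moved it besides single arrays left out. The day as a block gave 3 at 24 hpf (all slc4a1a), where 2054 of 43663 probes passed. Keeping only values shared by at most 10 probes gave 2 for 48 minus 24 hpf (both slc4a1a), where 40 of 8623 passed. The slc4a1a probes were in the 24 hpf list, so their 24 hpf values were low by selection. Nothing is read from these passes. Medians close to 0 changed sign easily. The slc25 median at 30 hpf was 0.007 with each array centred on its median. With the lists' own symbols alone the slc medians were -0.0086 at 30 hpf and -0.031 at 48 hpf. With values shared by at most 10 probes they were 0.0059 at 24 hpf and -0.0075 at 30 hpf, and without slc7a6os the median at 48 hpf was -0.0090. The median difference of 48 minus 24 hpf was -0.017 with the replicate number as a block and -0.31 with the day as a block or within day 2. That of 48 minus 30 hpf was 0.49 with the day as a block. This block is set by the 24 hpf values that named those genes, so nothing is read from the 0.49. Same-numbered arrays did not deviate together (r between -0.0095 and 0.0198), so the numbers were not taken to pair the arrays.

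Counts of genes at the fold limit fell with stricter rules. A limit of 2-fold left 3 of 33, 4 of 48 and 0 of 64 lower at 24, 30 and 48 hpf, while 0, 2 and 5 higher were left at these stages. The lower genes at 24 and 30 hpf include slc4a1a, low there by selection. Of the higher genes at 48 hpf, slc25a51b, slc12a3 and slc26a1 rested on 1 array each. With the lists' own symbols alone there were 2 lower at 24 hpf, and at 30 hpf 6 lower and 3 higher. With values shared by at most 10 probes there were 2 lower and 3 higher at 24 hpf, 6 lower and 4 higher at 30 hpf, and 3 lower at 48 hpf. With each array scaled to 1 median absolute deviation 8 were lower at 48 hpf. The shares of all probes under these settings are not given here, so the counts are not set against them.

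With 1 array left out, the lower genes numbered 4 to 12 at 24 hpf, 8 to 15 at 30 hpf and 7 to 8 at 48 hpf, and the higher genes 5 to 9, 7 to 8 and 8 to 17. No share of all probes is set beside these counts either. The slc median ran from -0.34 (without replicate 2) to 0.063 (without replicate 1) at 24 hpf, 0.051 to 0.093 at 30 hpf and 0.0054 to 0.11 at 48 hpf, and the slc25 median from -0.89 to 0.063, -0.12 to 0.11 and 0.057 to 0.12. The median difference ran from 0.029 to 0.84 for 30 minus 24 hpf, -0.31 to 0.63 for 48 minus 24 hpf and -0.007 to 0.31 for 48 minus 30 hpf. With an array of 48 hpf left out, no slc probe passed at any stage or difference. Fits that left a stage with 1 array are not read for passing probes.

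Over 57 gene values there were 831 alternatives, of which 14 changed the sign, in 12 of the values. Most of the 57 were named because their arrays all lay on 1 side of 0 or did not overlap between stages. Leaving out an array could not change the sign of those, so the count does not measure how stable they are. The day block is set by the gap between the 24 hpf arrays alone. For slc11a2, slc20a1b, slc24a5 and slc35g2b, and for all genes of 48 minus 30 hpf, those are the values that named them, so nothing is read from the blocked value. With the day as a block, slc11a2 was -0.22 at 30 hpf, 0.29 at 48 hpf and 0.50 for 48 minus 30 hpf, slc20a1b was -0.20 at 30 hpf and 0.43 for 48 minus 30 hpf, and slc24a5 was -0.21 at 30 hpf. At 48 hpf slc16a3b was then 0.38, slc2a15a -0.78 and slc35g2b -0.082. With the replicate number as a block slc17a6 was 0.15 and slc67a1 0.058 at 24 hpf. With 1 array left out, slc11a2 ran from -0.015 to 1.49 and slc24a5 from -0.067 to 0.19 at 30 hpf, and slc25a51b from -0.37 to 1.93 at 24 hpf. The cause was not tested for any of these. With 2 or 3 arrays a stage and no signal behind the ratios, changes near 1.5-fold were not resolved from the spread between arrays.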
